A study of Mus musculus with 20 samples.

Results

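Liver makes few steroids of its own but inactivates, reactivates and rearranges those that reach it. The genes described here are 10 enzymes of that work: the hydroxysteroid dehydrogenases Hsd3b2, Hsd3b3, Hsd3b5, Hsd3b6, Hsd11b1, Hsd17b2 and Hsd17b13, the aldo-keto reductases Akr1c6 and Akr1d1, and the steroid reductase Srd5a1. They were chosen by gene symbol out of 37681 genes in each deposited table, and all 10 were among the 15578 genes counted as detected, meaning at least 5 reads in at least 5 of the 10 libraries of any table. Hsd3b6 reached that level only in some tables.

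The samples were livers of 10 wild-type male C57/B6J mice aged 12 weeks. An intraperitoneal injection of IL-1β, a cytokine that starts the acute phase response, was given to 5 mice at 20 µg/kg, and the other 5, called untreated, received saline; all livers were taken 4 hours later. Each liver RNA gave an Illumina library read from both ends and an Ion Torrent library read from a single end, and each of the 20 libraries was aligned in 3 ways (GSNAP, STAR, and STAR with Bowtie2 for the reads left over), which gave 6 tables over the same 10 mice. The tables are therefore not independent, and the 3 aligners of a platform share their reads. Library totals ran from 10568530 to 12008799 counts on Illumina and from 12199528 to 16439683 on Ion Torrent. The pair of libraries of a mouse deviated together from the treatment mean, with correlations across genes of 0.562 to 0.728 in 9 mice, while untreated mouse UNT_9584 stood apart at 0.199 to 0.249.

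By way of background, enzymes of the 3-beta-hydroxysteroid dehydrogenase family oxidize the 3-hydroxyl group of a steroid and shift its double bond, the step that turns precursors into active hormones; the mouse liver also has a form, encoded by Hsd3b5, that works mainly as a reductase and is known as a male-typical hepatic gene. The 11-beta enzyme Hsd11b1 regenerates active glucocorticoid inside the cell. The remaining enzymes reduce or oxidize the 17 position (Hsd17b2, Akr1c6) or saturate the A ring (Akr1d1, which also serves bile acid synthesis, and Srd5a1).

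The Hsd3b members lie in a tandem cluster on chromosome 3, on the minus strand, and are so alike that a read can match more than 1 of them. In the mm9 (NCBIM37) annotation, Hsd3b5 occupied chr3:98422559-98434232, Hsd3b2 chr3:98513178-98528499, Hsd3b3 chr3:98545399-98567051 and Hsd3b6 chr3:98609427-98618366, all protein-coding. Over 1122 coding bases Hsd3b2 and Hsd3b3 were 95.1% identical, with an uninterrupted identical run of 228 bases. Hsd3b6 was 94.4% identical to Hsd3b2 and 94.5% to Hsd3b3, while Hsd3b5 stood at 79.6% to 80.5% against these 3 genes and at 95.2% against its neighbour Hsd3b4.

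To show how the members can be told apart, the next 4 lines give coding bases 557 to 656, the stretch of 100 bases in which they are least alike, written 5′ to 3′ on the coding strand, with capitals at the 52 positions where any of the 4 differ. The stretches lie at chr3:98515895-98515994 (Hsd3b2), chr3:98546273-98546372 (Hsd3b3), chr3:98423396-98423495 (Hsd3b5) and chr3:98610249-98610348 (Hsd3b6), each within a single exon. A read that covers this stretch differs between any pair of the 4 genes.
Hsd3b2: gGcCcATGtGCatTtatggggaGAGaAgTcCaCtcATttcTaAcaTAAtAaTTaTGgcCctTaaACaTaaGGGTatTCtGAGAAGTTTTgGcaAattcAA
Hsd3b3: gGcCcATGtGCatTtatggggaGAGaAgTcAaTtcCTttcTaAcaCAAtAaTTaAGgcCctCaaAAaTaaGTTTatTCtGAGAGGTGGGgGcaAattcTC
Hsd3b5: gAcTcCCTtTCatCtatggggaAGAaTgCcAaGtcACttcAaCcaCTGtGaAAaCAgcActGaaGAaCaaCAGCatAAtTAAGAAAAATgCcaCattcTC
Hsd3b6: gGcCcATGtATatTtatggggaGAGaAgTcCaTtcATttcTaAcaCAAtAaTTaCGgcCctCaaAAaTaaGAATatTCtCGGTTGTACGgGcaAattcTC

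Longer windows were shared less often. Of all windows of 50 bases in the longest transcript, 27.1% for Hsd3b3, 21.7% for Hsd3b2, 18.1% for Hsd3b5 and 16.1% for Hsd3b6 occurred exactly in a transcript of another gene. At 125 bases, the Illumina read length, these shares were 9.29%, 3.67%, 4.26% and 1.85%. Hsd3b3 shared most with Hsd3b2, whereas Hsd3b5 shared most with the predicted gene Gm10681. The 6 members outside the cluster shared little or nothing: Akr1c6 had 2.08% of its 50-base windows in common with Akr1c20, Hsd17b13 had 0.663%, and Hsd11b1, Hsd17b2, Akr1d1 and Srd5a1 had none at any length examined. Values of single Hsd3b genes are thus uncertain to the extent that reads were split among them, and the sum over the cluster is given beside them.

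**Figure D1:**
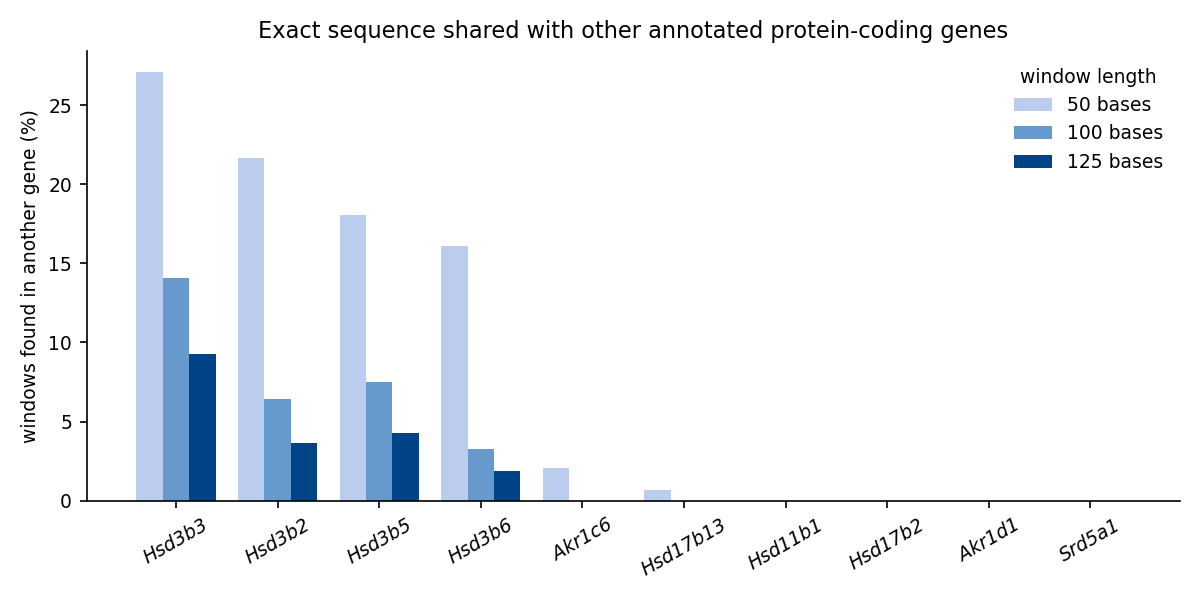
Share of windows (%) of each enzyme's longest transcript that occur exactly in a transcript of another annotated protein-coding gene, for windows of 50, 100 and 125 bases. The 4 Hsd3b genes reach 16.1% to 27.1% at 50 bases and fall with window length, while the other 6 enzymes are at 2.08% or below.

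Every member with enough reads to be judged was lower in IL-1β treated than in untreated livers. Within each table a quasi-likelihood test on the counts (edgeR, Benjamini-Hochberg adjusted p below 0.05 over all detected genes) called 9 members lower in the GSNAP table, 9 in the STAR table and 10 in the STAR + Bowtie2 table of Illumina, and 10, 9 and 10 on Ion Torrent in the same order; none was called higher. The member missing from a count was Hsd3b6 each time. Lower calls were common among all genes: 23.9%, 22.9% and 24.4% on Illumina and 23.9%, 21.8% and 24% on Ion Torrent. In total 9 of the 10 members were called lower in all 6 tables, against 17.6% of detected genes called lower and 17.3% called higher in all 6. Shares of all genes, here and below, include genes with few reads and were not matched to the members in read count. With a log2 fold change below -1 required as well, 5, 5 and 6 members remained on Illumina and 6, 5 and 6 on Ion Torrent, against 9.15%, 8.88%, 9.28%, 9.43%, 8.95% and 9.22% of all genes in the same order. Without untreated mouse UNT_9584, whose libraries stood apart, the edgeR counts were the same except for 8 members with STAR on Ion Torrent. The median log2 fold change over the members lay between -1.28 and -0.85 across the tables, where that over all genes lay between -0.01 and 0.00. Fewer cells of a type and less RNA per cell cannot be told apart in these bulk samples.

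The rank test used by the study, a two-sided Mann-Whitney test with adjustment over all genes (exact except where counts tied), called the same number of members lower in each table as edgeR did. In it 9 members passed in all 6 tables, against 16.8% of detected genes. In the counts as deposited the same 9 had every IL-1β library below every untreated library in all 6 tables, which held for 14.5% of genes. On the TMM-scaled levels that edgeR compares, the groups of Hsd17b2 overlapped in all 6 tables and those of Hsd11b1 in the Ion Torrent STAR table. With 5 mice against 5 this test cannot give an unadjusted p below 0.00794, so its q-values for these 9 genes, 0.0304 to 0.0355, do not rank them.

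**Figure D2:**
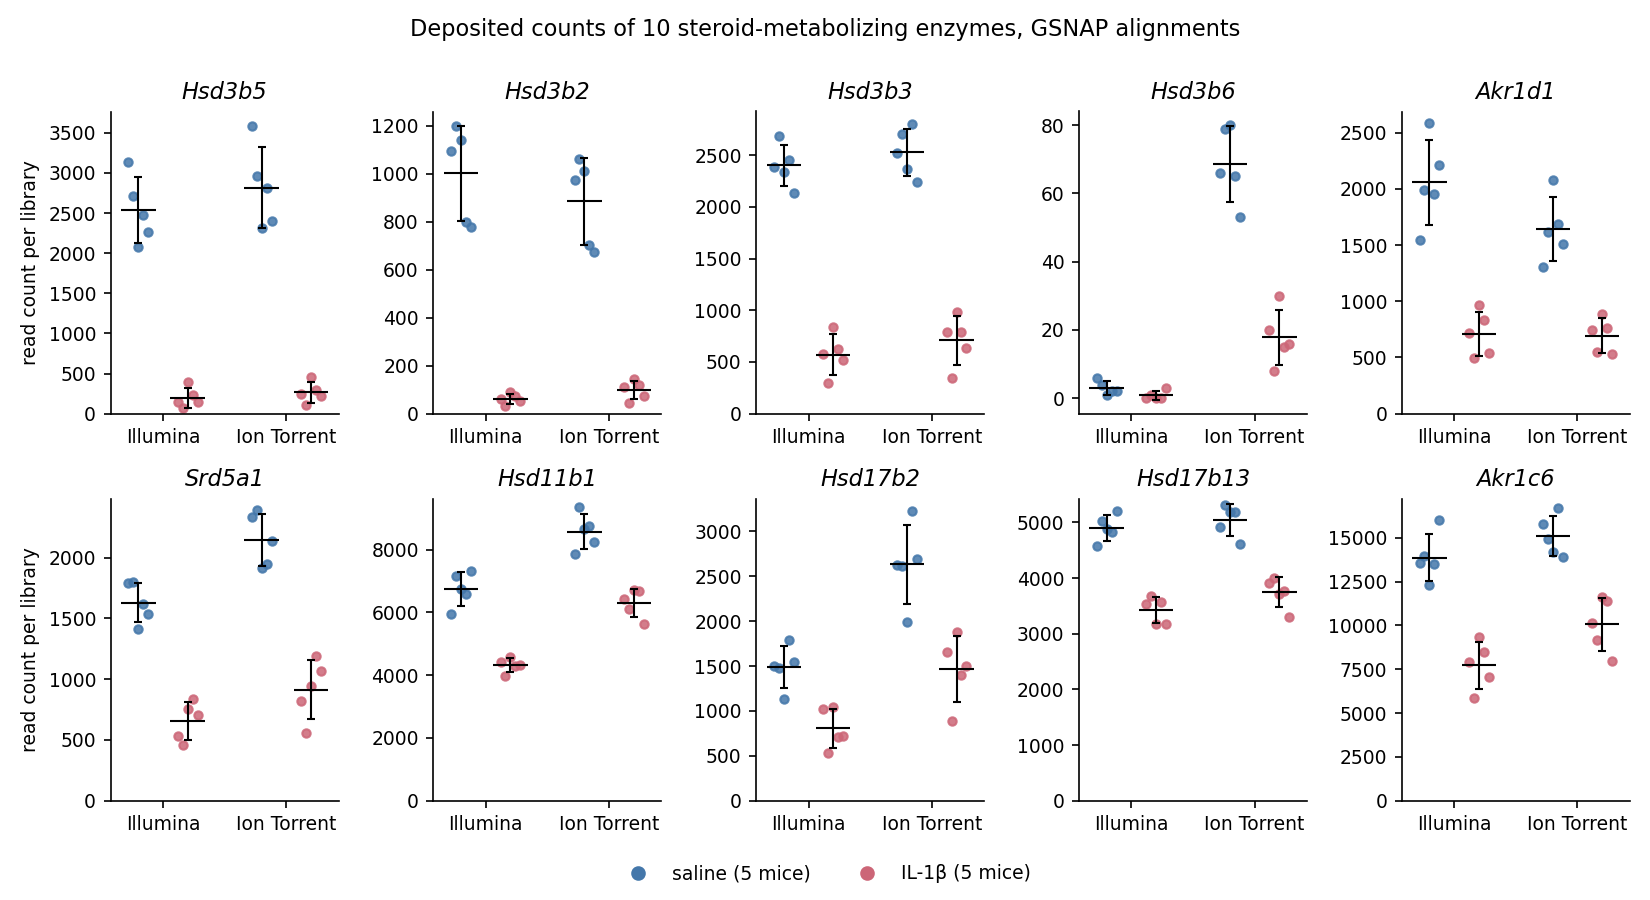
Read counts per library of the 10 enzymes in the GSNAP tables, for 5 untreated (saline) and 5 IL-1β treated mice on each platform; points are mice, bars the mean ± SD, and each panel has its own axis. The groups do not overlap for any enzyme but Hsd3b6 on Illumina.

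Hsd3b5, the male-typical liver form, had 3136, 2711, 2083, 2475 and 2270 Illumina counts (GSNAP) in untreated mice UNT_9574, UNT_9575, UNT_9576, UNT_9580 and UNT_9584. In treated mice ILB_9577, ILB_9578, ILB_9579, ILB_9582 and ILB_9583 it had 143, 74, 397, 231 and 142. The highest treated mouse, at 397 counts, was far below the lowest untreated mouse, at 2083. The fall was 11.3-fold (log2 fold change -3.50 ± 0.33 SE, edgeR adjusted p = 9.80e-07) and between 9.35-fold and 11.7-fold over the 6 tables. On Ion Torrent with GSNAP the counts ran from 2318 to 3590 in untreated and from 109 to 453 in treated mice. The treated mice also varied more among themselves, with coefficients of variation of 45.6% to 63.3% over the tables against 16.1% to 19.8% in untreated mice.

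Hsd3b2 had the largest fall of the members in the 3 Illumina tables and with STAR on Ion Torrent, while Hsd3b5 did in the other 2. With STAR + Bowtie2 on Ion Torrent they were almost equal, at -3.22 for Hsd3b2 and -3.23 for Hsd3b5. Without mouse ILB_9579 their order there turned (-3.513 and -3.511). For Hsd3b2, untreated mice, in the order above, had 1097, 1198, 1142, 800 and 778 Illumina counts with GSNAP, and treated mice 60, 31, 89, 74 and 53. The log2 fold change was -3.85 ± 0.21 (SE), a 14.4-fold difference (edgeR adjusted p = 7.90e-09). Among all 15578 genes it ranked 14 to 82 from the lowest log2 fold change, depending on the table. Its fold difference ranged from 8.08 to 18.3 over the tables, the widest span of the 9 members called in all 6, and is taken up below.

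Hsd3b3 had a smaller fold difference than Hsd3b2 and Hsd3b5. Its Illumina counts were 2390, 2685, 2340, 2454 and 2136 in untreated mice and 574, 293, 843, 625 and 515 in treated mice. The untreated mice were close to each other and all treated mice lay well below them. The log2 fold change was -1.90 ± 0.20 (SE; 3.73-fold lower, edgeR adjusted p = 2.77e-06), and the fold difference over the 6 tables was 3.11 to 3.80.

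Hsd3b6, a form best known outside the liver, was close to absent and depended on the aligner. With GSNAP on Illumina it had 6, 4, 1, 2 and 2 counts in untreated mice and 0, 1, 0, 0 and 3 in treated mice, groups that overlap, and no change was called (log2 fold change -1.59, edgeR adjusted p = 0.12). Without treated mouse ILB_9583, which held the 3 counts, it was called there at -2.94 (edgeR adjusted p = 0.0201), which makes 10 members called in that table. With STAR every Illumina library was at 0 and the Ion Torrent libraries held 0 to 2 counts, so no fold can be given. With GSNAP on Ion Torrent it had 66, 79, 80, 65 and 53 counts in untreated and 20, 8, 30, 15 and 16 in treated mice (log2 fold change -1.79 ± 0.26 SE, edgeR adjusted p = 5.04e-05). With STAR + Bowtie2 the Illumina libraries had 20, 13, 17, 15 and 11 counts in untreated and 1, 1, 7, 4 and 2 in treated mice (log2 fold change -2.15 ± 0.41 SE, edgeR adjusted p = 5.63e-04). Groups were apart in both of these tables. Reads of other Hsd3b genes depended on the aligner too: over 5 untreated mice Hsd3b4 had 3, 0 and 53 Illumina reads with GSNAP, STAR and STAR + Bowtie2, and 60, 0 and 99 Ion Torrent reads. Where Hsd3b6 was called lower, its reads amounted to 0.199% to 1.38% of the cluster in untreated mice, and how many of them came from Hsd3b2 or Hsd3b3 was not tested.

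Because reads can pass between paralogs, the 6 rows Hsd3b1 to Hsd3b6 were also added together. Their sum in the Illumina GSNAP table was 5188 to 6630 counts in untreated mice and 399 to 1329 in treated mice. It was lower in every table, by 6.31-fold to 6.42-fold on Illumina and 5.15-fold to 5.21-fold on Ion Torrent (log2 fold change -2.68 to -2.36, SE 0.21 to 0.23, largest edgeR adjusted p = 5.22e-07). Within a platform the aligner moved the log2 fold change of the sum by far less than that of Hsd3b2. The counts of the sum did move, with untreated means of 6320, 6025 and 8099 on Ion Torrent with GSNAP, STAR and STAR + Bowtie2.

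The makeup of the cluster changed as its sum fell. Hsd3b3 held a median of 41.2% of the cluster's reads in untreated mice and 72.2% in treated mice (Illumina, GSNAP), with ranges of 36.0% to 42.8% and 63.4% to 73.9%. Hsd3b5 went the other way, from 43.2% (37.4% to 47.3%) to 19.9% (18.4% to 29.9%), and Hsd3b2 from 16.5% (14.0% to 20.5%) to 7.72% (6.70% to 7.96%). In all 6 tables the groups were fully separated for each of these 3 shares, which gave the smallest p that an exact two-sided permutation test of 5 against 5 mice allows, 0.00794 (0.0106 after Benjamini-Hochberg adjustment over 24 tests of 4 genes in 6 tables). These shares sum to about the whole, so the 3 tests are not independent, and the comparison was chosen after the data were examined. They do not depend on scaling between libraries. In treated livers most cluster reads therefore came from Hsd3b3, the one of the 3 that fell least.

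**Figure D3:**
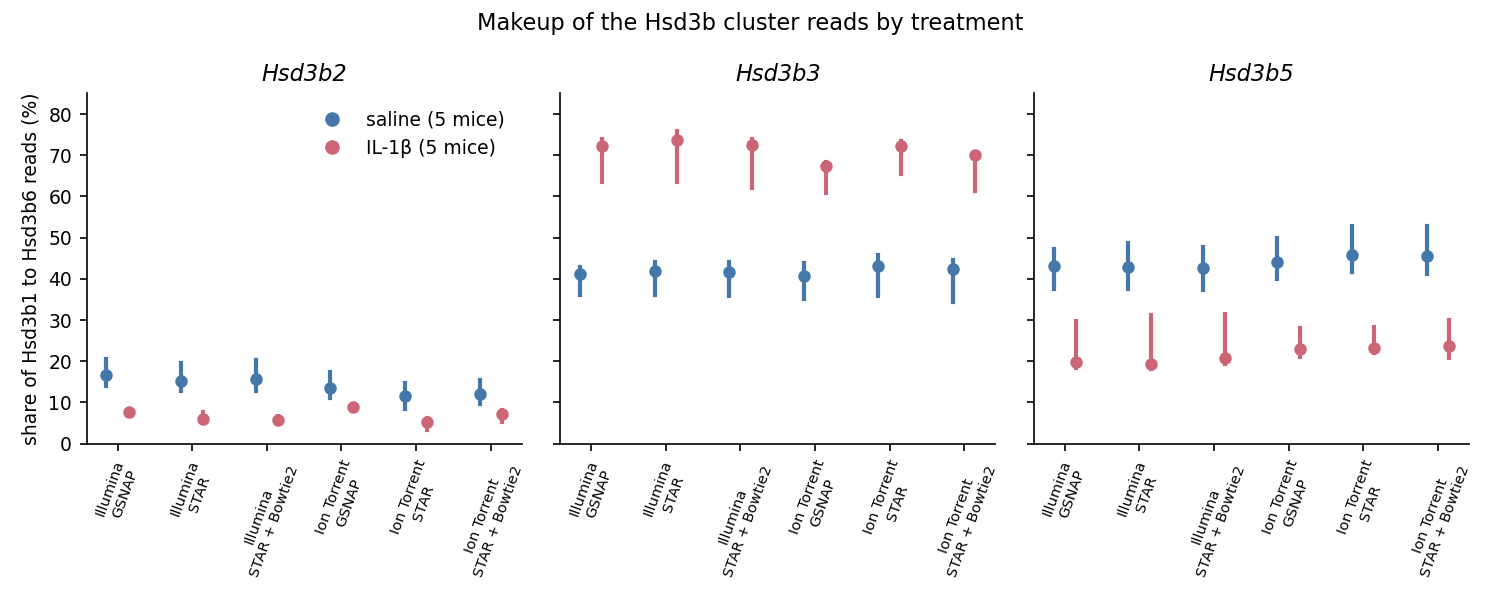
Share (%) of the reads of Hsd3b1 to Hsd3b6 assigned to Hsd3b2, Hsd3b3 and Hsd3b5 in each of the 6 tables; the point is the median and the line the range over 5 untreated (saline) or 5 IL-1β mice. The Hsd3b3 share is at 34.3% to 45.7% in untreated and 60.8% to 75.9% in treated mice over all tables.

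The A-ring reductases followed. Akr1d1, the 5-beta-reductase (chr6:37480173-37518815, plus strand), had 1547, 1993, 2584, 1952 and 2210 Illumina counts in untreated mice and 722, 491, 968, 830 and 541 in treated mice. Its log2 fold change was -1.37 ± 0.18 (SE; 2.58-fold lower, edgeR adjusted p = 2.93e-05). Srd5a1, the type 1 5-alpha-reductase (chr13:69712327-69750320, minus strand), had 1790, 1796, 1416, 1615 and 1536 counts in untreated and 535, 461, 758, 837 and 702 in treated mice. Its log2 fold change was -1.13 ± 0.15 (SE; 2.19-fold lower, edgeR adjusted p = 2.54e-05). The groups of both genes were apart in every table, and their treated levels were 38.1% to 47.5% and 44.6% to 49.0% of untreated over the 6 tables.

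The 17-position enzymes fell by less. Hsd17b2, which oxidizes estradiol and testosterone to weaker steroids (chr8:120225846-120282929, plus strand), had 1502, 1473, 1137, 1791 and 1546 counts in untreated and 1016, 527, 1047, 714 and 720 in treated mice. In counts the lowest untreated mouse was only slightly above the highest treated one, and per kilobase on the scaled level the lowest untreated mouse (72.0 CPM) was below the highest treated one (76.6 CPM). The log2 fold change was -0.72 ± 0.17 (SE; edgeR adjusted p = 0.00314). Akr1c6, the mouse 17-beta-hydroxysteroid dehydrogenase of the aldo-keto reductase family (chr13:4433552-4456776, plus strand), was the most abundant member, with 13553, 13956, 12333, 13496 and 16032 counts in untreated mice. Treated mice had 7920, 5840, 9343, 8500 and 7034, a log2 fold change of -0.68 ± 0.13 (SE; edgeR adjusted p = 8.00e-04). Over the 6 tables Hsd17b2 was 1.59-fold to 1.65-fold lower and Akr1c6 1.32-fold to 1.61-fold lower.

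Hsd11b1 and Hsd17b13 changed least. Hsd11b1 (chr1:195047824-195090248, minus strand) had 5945, 7145, 6736, 6585 and 7325 counts in untreated and 4414, 3961, 4567, 4292 and 4333 in treated mice, and the treated mice were tightly grouped. The log2 fold change was -0.48 ± 0.10 (SE; 1.39-fold lower, edgeR adjusted p = 0.00105). Hsd17b13, a protein of hepatocyte lipid droplets whose place among steroid enzymes rests on its family name (chr5:104384459-104406429, minus strand), had 4585, 5031, 4880, 4835 and 5208 counts in untreated mice. Treated mice had 3532, 3687, 3176, 3562 and 3168, and the log2 fold change was -0.35 ± 0.09 (SE; 1.27-fold lower, edgeR adjusted p = 0.00536). In the Ion Torrent STAR table both sat near the threshold (edgeR adjusted p = 0.0334 and 0.0258), and leaving out mice 1 at a time ended the call there for Hsd11b1 in 8 of 10 fits and for Hsd17b13 in 5 of 10, with adjusted p up to 0.103. These fits left out mice UNT_9575, UNT_9576, ILB_9577, ILB_9578, UNT_9580, ILB_9582, ILB_9583 or UNT_9584. Without scaling beyond library totals, which moves the median gene by -0.11 to -0.09 on the log2 scale, the Illumina GSNAP values of the pair were -0.60 and -0.47.

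**Figure D4:**
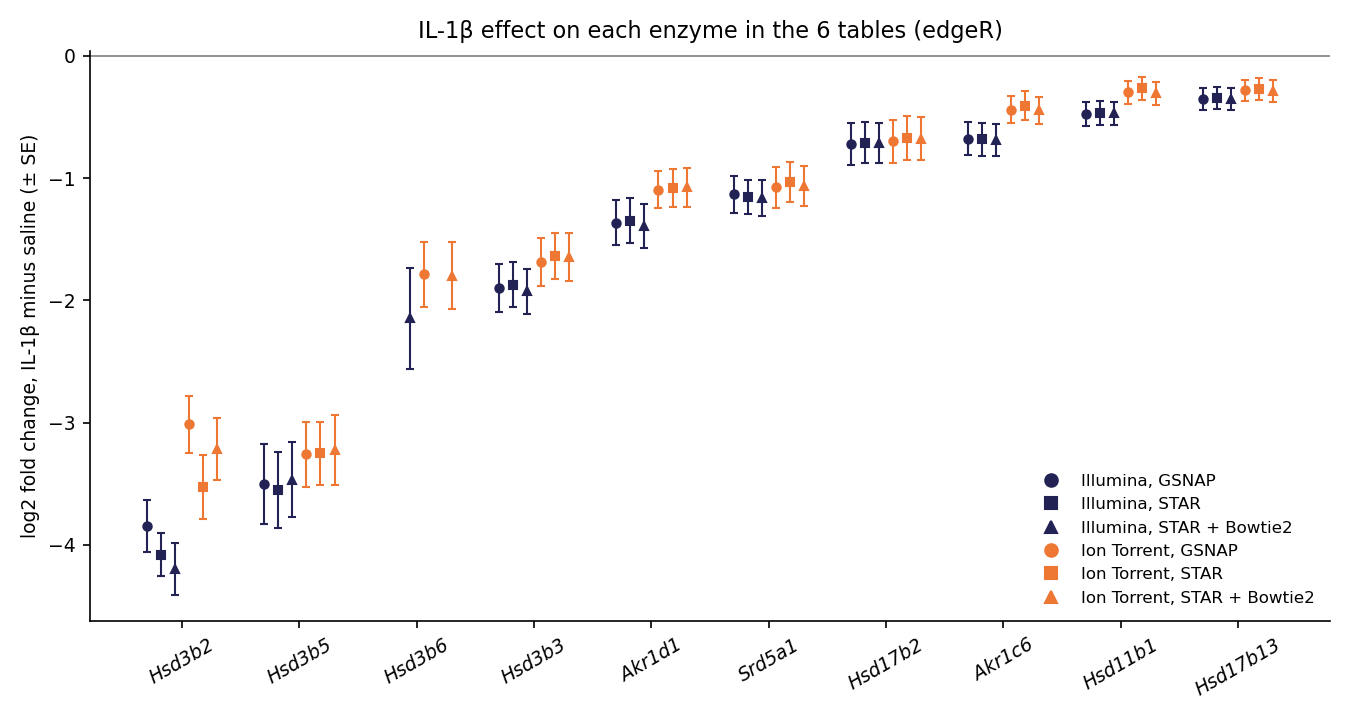
Log2 fold change (IL-1β minus saline, edgeR, ± SE) of each enzyme in the 6 tables, with colour for platform and symbol for aligner; Hsd3b6 is drawn only in the 3 tables where untreated libraries averaged 5 counts or more. Fold changes run from -4.20 for Hsd3b2 to -0.26 for Hsd11b1, and Ion Torrent values lie nearer to 0 than Illumina values for the other 9 enzymes with each aligner.

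Per kilobase of annotated exon, which allows levels of different genes to be set side by side, Akr1c6 stood at 620 ± 83.9 (SD, n = 5) CPM per kilobase in untreated livers (Illumina GSNAP table), CPM being counts scaled to a common library total with TMM factors. Hsd11b1 (206 ± 22.8), Hsd17b13 (188 ± 15.7), Hsd3b5 (130 ± 18.0), Hsd3b3 (108 ± 6.66) and Hsd17b2 (96.0 ± 16.9) came next. Akr1d1 (58.3 ± 11.6), Srd5a1 (44.4 ± 3.80), Hsd3b2 (21.8 ± 3.62) and Hsd3b6 (0.135 ± 0.0861) were lower. Ranges of neighbours overlapped between Hsd11b1 and Hsd17b13, Hsd3b5 and Hsd3b3, Hsd3b3 and Hsd17b2, and Akr1d1 and Srd5a1, so the order within those pairs was not resolved. Nor was that of Hsd3b5 and Hsd17b2, whose ranges were 105 to 155 and 72.0 to 117. The value of Hsd3b2 rests on annotated exons of 3763 bases in all, against 1604 to 1823 in the other 3 Hsd3b members, and that of Hsd3b6 on very few reads. In treated livers Hsd3b5 dropped from place 4 to place 8 of the 10, at 11.4 ± 7.32, whereas Akr1c6 (388 ± 68.3), Hsd11b1 (148 ± 8.23) and Hsd17b13 (147 ± 9.04) kept the first 3 places. The treated range of Hsd3b5 (4.28 to 23.2) overlapped those of Srd5a1 (14.2 to 25.9), Akr1d1 (15.6 to 31.1) and Hsd3b3 (14.9 to 43.3). Its place among these was therefore not resolved, nor was the order of Hsd11b1 and Hsd17b13. On Ion Torrent with GSNAP and with STAR, Hsd3b5 stood at place 5 in untreated livers, below Hsd17b2, and at place 8 in treated livers. Its range overlapped that of Hsd17b2 in untreated livers and that of Srd5a1 in treated livers there.

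The same treated mouse was lowest for most members. Leaving out Hsd3b6, treated mouse ILB_9578 had the lowest scaled level of 8 of 9 members in each Illumina table and of 6 of 9 in each Ion Torrent table. Treated mouse ILB_9579 had the highest level of 7 members in each Illumina table and of 5 to 7 in the Ion Torrent tables. No untreated mouse was lowest for more than 5 members in a table. How often each mouse was lowest or highest among all genes was not counted, so these orders cannot be called particular to the members. In Illumina GSNAP counts as deposited, ILB_9578 was also the lowest treated mouse for Alb (549496), Cps1 (24100) and Hsd3b7 (1336). For Hsd17b6 and Cyp2e1 another treated mouse was lowest. Across the 10 mice the genes whose deviations from the treatment mean were most like those of Hsd3b5 in the Illumina GSNAP table were Sh3pxd2a (r = 0.958, rho = 0.927) and Nod1 (r = 0.934, rho = 0.867). In the Ion Torrent libraries of the same mice r was 0.962 and 0.744; these are descriptions from a search over all genes.

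Whether the size of a fall depended on the platform was tested per aligner in 1 model of all 20 libraries that also held a term for each mouse. Hsd3b2 was the member that passed. Its log2 fold change was nearer to 0 on Ion Torrent by 0.83 ± 0.11 (SE; edgeR adjusted p = 5.99e-04) with GSNAP and by 0.95 ± 0.12 (adjusted p = 1.93e-04) with STAR + Bowtie2. With STAR the difference was 0.55 ± 0.15 and did not pass (adjusted p = 0.653). Such calls were rare among all genes, at 0.0642% (GSNAP), 0.00642% (STAR alone) and 0.077% (STAR + Bowtie2) of genes, or 10, 1 and 12 of them. At an unadjusted p below 0.05 there were 1215, 1090 and 1210 genes.

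The platform difference in the level of Hsd3b2 had opposite signs in untreated and treated mice with GSNAP and with STAR + Bowtie2. In CPM the Ion Torrent value was below the Illumina value in all 5 untreated mice with every aligner, as with GSNAP at 45.5 to 67.5 against 66.96 to 95.9. In treated mice it was above the Illumina value in 5 of 5 mice for GSNAP, 5 of 5 for STAR + Bowtie2 and 2 of 5 for STAR. The GSNAP ranges there were 3.10 to 10.1 on Ion Torrent and 2.88 to 8.33 on Illumina. The number of Ion Torrent Hsd3b2 reads in treated mice also depended on the aligner, with 492, 269 and 486 reads over the 5 mice with GSNAP, STAR and STAR + Bowtie2. Shares of windows in common with other genes, given above, are larger for shorter windows; their part in this difference was not tested. When the rows Hsd3b1 to Hsd3b6 were replaced by their sum, an alternative chosen after the data were examined, the platform difference was 0.29 to 0.31 and was not called (adjusted p = 0.348 to 0.609).

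**Figure D5:**
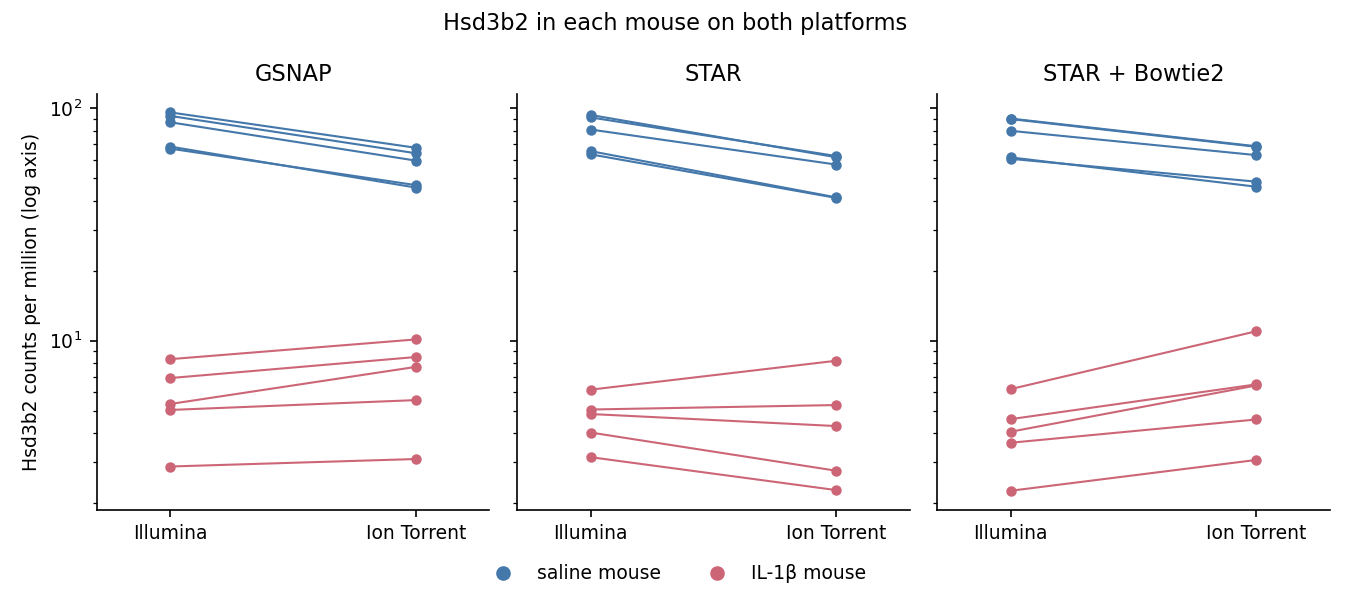
Hsd3b2 CPM (log axis) in the Illumina and the Ion Torrent library of each mouse, joined by a line, for the 3 aligners. Lines of the 5 untreated mice fall towards Ion Torrent in every panel, while those of the 5 treated mice rise with GSNAP and STAR + Bowtie2.

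For the other 8 members outside Hsd3b6 the platform term was not called with any aligner, yet it was above 0 for all 9 members, Hsd3b2 included, with all 3 aligners. Its median over the 9 was 0.22, 0.25 and 0.23 with GSNAP, STAR and STAR + Bowtie2, against a median over all genes of -0.02, 0.00 and -0.01. Since that median mixes genes that rose and fell, the 2741 genes called lower in all 6 tables, the 9 members among them, were also taken alone, a comparison added after the data were examined. Their median was 0.00, 0.02 and 0.00, and 50.1%, 54.1% and 51.0% of them were above 0. In each aligner 6 of the 9 members had an unadjusted p below 0.05, where 7.55%, 8.57% and 7.62% of the 2741 genes and 7.8%, 7% and 7.77% of all genes did. The members were not drawn to match other genes in level or size of fall, and these values are descriptions. Akr1d1, for example, differed by 0.28 (95% interval 0.10 to 0.46) with GSNAP, and Hsd17b2 by 0.02 (-0.15 to 0.19).

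The rest of the pathway was read from lists of relatives and partners, whose counts of calls in all 6 tables stand against 17.6% of all genes called lower and 17.3% called higher there. Of 6 detected genes of the other 17-beta-hydroxysteroid dehydrogenases, 4 fell and 2 rose in all 6 tables. Hsd17b6 fell with a log2 fold change of -1.01 in the Illumina GSNAP table, as did Hsd17b11 (-0.79) and Hsd17b10 (-0.60), while Hsd17b12, an enzyme of fatty acid elongation, rose (0.68). Of 8 other Akr1c genes 5 fell and none rose in all 6 tables (17.6% and 17.3% of all genes), led by Akr1c19 (-1.92), Akr1c14 (-1.74), Akr1c20 (-1.05) and Akr1c12 (-0.86). Hsd3b7, which acts in bile acid synthesis and lies outside the cluster, fell (-0.62), as did Srd5a2 (-1.61), though its counts were at most 9 in the Illumina GSNAP table and at most 13 in the Ion Torrent one.

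Partners of the glucocorticoid step moved differently. H6pd, which supplies the cofactor of Hsd11b1, had 5026 to 9032 counts in untreated and 10610 to 11691 in treated mice and rose in all 6 tables (log2 fold change 0.93 ± 0.15 SE, edgeR adjusted p = 1.17e-04 in the Illumina GSNAP table). Hsd11b2, the opposing enzyme, had no reads in the GSNAP tables. The glucocorticoid receptor Nr3c1 fell (-0.72), as did the estrogen receptor Esr1 (-0.71). Of 8 listed glucocorticoid receptor targets 5 rose (17.3% of all genes did) and none fell in all 6 tables, with Tat at 1.51, Sgk1 at 1.39, Zbtb16 at 1.35 and Per1 at 1.27. Tsc22d3 (-0.71 to -0.63 over the tables), Pck1 (-0.50 to -0.32) and Klf9 (0.34 to 0.38) were not called in all 6. Sult1e1, which sulfates estrogens, rose by 1.93 in the Illumina GSNAP table, with 0 to 4 counts in untreated and 4 to 8 in treated mice, and its log2 fold change at such counts reached 4.50 in another table.

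Other genes known as male-typical in liver were listed too. Of the 10, 6 fell and none rose in all 6 tables, where 17.6% and 17.3% of all genes did, with a list median of -0.60 in the Illumina GSNAP table, where the median over all genes was 0.00. Selenbp2 was at -1.56, Slco1a1 at -0.84, Cyp4a12b at -0.80 and Cyp4a12a at -0.76. None approached the -3.50 of Hsd3b5.

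Cell type markers were counted in the same way, against 17.6% of all genes lower and 17.3% higher in all 6 tables. Of 8 hepatocyte markers 5 fell and Tat rose, while Apoa1 and Ttr were not called in all 6. The summed counts of the 8 were 1202091 to 1423722 in untreated and 757918 to 913760 in treated mice. Most of that sum was Alb alone, with 873460 to 1057456 counts in untreated and 549496 to 653443 in treated mice (Illumina GSNAP). Neutrophil markers rose, all 7 that were detected of 8 listed in all 6 tables, from a sum of 31 to 69 to a sum of 590 to 1277 counts. Of 8 macrophage markers 3 fell and Marco rose, with overlapping sums of 1566 to 2980 and 799 to 1951. Sums also overlapped between groups for sinusoidal endothelium (3 of 8 lower and 2 higher, 1945 to 3245 and 1664 to 2598), stellate cells (2 of 8 lower, near the share of all genes, 3377 to 4833 and 2177 to 3759), cholangiocytes (2 of 5 detected higher, 561 to 813 and 480 to 870) and lymphocytes (none of the 3 detected of 6 listed, 14 to 47 and 6 to 15). Of 8 markers of steroid-making organs 3 were detected. Cyp11a1, Cyp11b1, Cyp11b2, Cyp19a1 and Nr5a1 were at 0 in the Illumina GSNAP table, Cyp17a1 fell and Cyp21a1 rose in all 6 tables, and the sum over the list was 86 to 223 and 62 to 135 counts. The part of cell composition in the enzyme results was not tested.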

How the data were processed

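Counts were deposited by the authors as whole numbers per gene: reads or read pairs aligned to mm9 with GSNAP, STAR 2.5.1b or STAR 2.5.1b with Bowtie2 2.2.9, re-sampled to a common depth within a platform and aligner with PORT and counted on Ensembl v67 gene models, per the labels and the study's methods. The re-sampling equalizes depth but leaves shared reads of paralogs to the aligner. From these counts, edgeR 4.0.16 in R 4.3.3 (TMM scaling, quasi-likelihood test, Benjamini-Hochberg adjustment over 15578 genes reaching 5 reads in 5 libraries of any table) tested IL-1β against saline within each table. The Mann-Whitney test of the study was run beside it. The platform-by-treatment term was fitted over 20 libraries with the mouse as a block, since both libraries of a mouse came from the same liver RNA. Their deviations correlated in every mouse (0.199 or more). DESeq2 1.42.0, limma-voom (limma 3.58.1), other filters and scalings, and leaving out each mouse were alternatives. The edgeR, DESeq2 and limma-voom fits within a table, the rank test and the edgeR platform term were tested on simulated data. For the platform term the simulated libraries of the platforms were drawn independently, without a shared deviation of each mouse. That simulation therefore did not test the mouse block. SE is the fold change divided by the square root of F. Positions and transcripts came from GENCODE on NCBIM37. The gene spans printed for the 10 members with the Illumina GSNAP counts matched them with 250 bases added at each end. Levels per kilobase used annotated exon lengths. All 10 members are named; of each other list at most 4 genes are, those called in 1 direction in all 6 tables with the largest change, and of the 3 genes most like Hsd3b5 the first 2. Some items that this rule names are not reported here. Members and lists were chosen with earlier results of these data known. Hsd17b8 and Sts were not analysed here.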

Additional observations from a re-analysis of the deposited data

Results flagged for a closer look

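The IL-1β effect on Hsd3b2 differed between platforms, with a log2 fold change nearer to 0 on Ion Torrent by 0.83 with GSNAP and by 0.95 with STAR + Bowtie2 (edgeR with the mouse as a block). In 118 groups of 5 libraries, a single library stood apart from the other 4 by the Dixon test in 2, where chance gives about 1 in 20 groups. Both were in treated mice of the Ion Torrent STAR table. Hsd17b13 had 2678 counts in mouse ILB_9583 against 3197 to 3316 in the others, and Hsd3b6 had 0 counts in mouse ILB_9577 against 1 in each of the others, a difference of 1 read that the Dixon test must mark and from which nothing can be read. Without mouse ILB_9583 the log2 fold change of Hsd17b13 there was -0.22 (edgeR adjusted p = 0.0673).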

How the results depend on the processing

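Directions of called members held under every alternative run, with other scalings, filters, DESeq2 and limma-voom included. The rank test on counts divided by TMM library sizes called 9 members in place of 10 with STAR + Bowtie2 on Illumina and as many as before in the other 5 tables. A further limit of 1 on the size of the log2 change left 5, 5 and 6 members on Illumina (GSNAP, STAR, STAR + Bowtie2) and 6, 5 and 6 on Ion Torrent. Of all genes, 8.88% to 9.43% were called lower under that limit, depending on the table. Leaving out 1 mouse gave 7 to 9 calls by edgeR with STAR on Ion Torrent. By the rank test it gave 0 to 9 calls with GSNAP and 0 to 10 with STAR + Bowtie2 on Illumina, where leaving out mouse UNT_9584 alone kept calls, and 0 in the other 4 tables. With 4 mice against 5 the smallest p the rank test can give before adjustment is 0.0159. Without the replicate block the platform term called 0 members with each aligner, with Hsd3b2 at 0.83 for GSNAP and 0.97 for STAR + Bowtie2 (edgeR adjusted p = 1.0 for both), and DESeq2 with the replicate block called Hsd3b2 with the same aligners, 1 member each (0.85 and 0.97). The cluster sum ranged from -2.90 to -2.17 without 1 mouse. With no filter on low counts, Hsd11b1 (-0.24, adjusted p = 0.0907) and Hsd17b13 (-0.25, adjusted p = 0.0728) were no longer called by edgeR with STAR on Ion Torrent. The call of Hsd3b6 in the Illumina GSNAP table turned on 1 mouse.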
